A study of Mus musculus with 12 samples.

Results

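The genes described here are the R-spondin receptors Lgr4, Lgr5 and Lgr6, the membrane ubiquitin ligases Rnf43 and Znrf3, the scaffold Axin2 and the β-catenin gene Ctnnb1. They were taken by gene name from the table of normalized counts and are 7 of its 55401 genes. RNA was measured in 12 dishes of mouse airway organoids, 6 per group, of which one group was harvested 4.5 h after femtosecond laser ablation and the other served as control. Organoids were grown from primary epithelial cells of the lungs of adult C57BL/6J mice. All 12 dishes carried a lentiviral histone 2A-mCherry fusion driven by a p63 promoter that was cloned from human DNA. A dish held 45 organoids, and in the ablation group 10 adjacent cells per organoid were destroyed, whereas control organoids kept all their cells. For growth, organoids of both groups received medium with supernatant of L-WRN cells, a line made to secrete Wnt3a, R-spondin 3 and noggin. This medium was replaced in both groups by FluoroBrite DMEM 1 h before ablation, for which the methods name no supplement in this experiment. All values below were taken after this change of medium. Whether Wnt3a or R-spondin 3 remained around the organoids was not tested.

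In the canonical Wnt pathway, Frizzled receptors with Lrp5 or Lrp6 bind Wnt ligands and spare β-catenin from degradation, whereupon it binds TCF and LEF factors at target genes. Rnf43 and Znrf3 remove Frizzled receptors from the cell surface, and R-spondins bound to an Lgr receptor clear these ligases, which raises the response to Wnt. Axin2 rebuilds the complex that degrades β-catenin and is itself a target gene, as are Rnf43, Znrf3 and Lgr5 in many epithelia, so that the pathway dampens its own activity. In the mouse lung, Lgr5 and Lgr6 are known to mark separate mesenchymal cells beside alveoli and airways, while basal cells are the stem cells of the airway epithelium.

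Ablation and control dishes carry the numbers 1, 3, 4, 5, 6 and 7, and the dishes of one number share their passage and culture day. Pairs 1, 3 and 5 belong to one run of library numbers (library set 1) and pairs 4, 6 and 7 to another (library set 2). The titles of controls 4, 6 and 7 contain the word ablation although their treatment label reads control. They were used as controls. Values from library set 1 alone are given for Lgr5, Lgr6, Axin2 and Ctnnb1 only, and other results rest in part on these controls. The libraries held between 23631212 and 29775699 reads on genes. The count minimum for a test was 10 normalized counts, to be reached in 6 or more libraries. It was met by 13792 genes and by 6 of the 7 genes described here. Lgr5 reached 10 normalized counts in 3 libraries only and is therefore given dish by dish.

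Marker genes were read to see which cells the organoids held. Basal cell markers were abundant in all dishes, with mean normalized counts of 274710 for Krt5 and 7505 for Trp63 in the control, and all 10 of the listed basal markers could be tested. The club cell gene Scgb1a1 (3.97 in the control) and the ciliated cell regulator Foxj1 (11.9) were near 0. Cyp2f2 (50895), a secretory cell enzyme, and Aqp5 (65535), a water channel of alveolar type I cells and of some airway cells, were high. Aqp5 was 1 of 8 alveolar markers listed, of which 4 passed the count minimum and 2 (Sftpc and Sftpb) were at 0 in all dishes. Of 10 multiciliated markers, 3 passed the count minimum, namely Tubb4b (13397 in the control), Rsph1 (133) and Tppp3 (26.0). The authors describe ciliated cells in these organoids by staining of acetylated tubulin. Of 12 mesenchymal markers, 2 passed the count minimum (Vim and Pdgfra). Their summed normalized counts, mostly of Vim, were 197 to 503 in ablation dishes and 231 to 462 in control dishes, with Thy1 at 0 in all dishes. The 6 endothelial markers summed to between 2.96 and 16.4 normalized counts per dish, and Kdr, Emcn and Cldn5 were at 0 in all 12. In a bulk sample, fewer cells of a type and less RNA per cell cannot be told apart.

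The levels of the 7 genes spanned a wide range and held one order in every dish. Per kilobase of exon, mean normalized counts over the 12 dishes were 4190 for Ctnnb1, 795 for Lgr4, 182 for Lgr6, 89.9 for Rnf43, 69.8 for Znrf3, 19.02 for Axin2 and 1.14 for Lgr5. In all 12 dishes each gene stood above the next one in this order, and the ranges over dishes overlapped for Lgr6 and Rnf43 alone among neighbors. Lgr4 was thus the main receptor of its family at the RNA level, with 4.37 times the normalized counts per kilobase of Lgr6. Among the 28534 genes with any count, 99.1% had a lower level per kilobase than Ctnnb1, 93.4% a lower level than Lgr4 and 36.02% a lower level than Lgr5. None of the genes encoding ligands of these receptors passed the count minimum. Rspo1, Rspo4 and Ndp were at 0 in all dishes, Rspo2 reached at most 0.965 normalized counts in a dish, and Rspo3 averaged 3.59 after ablation and 2.84 in the control.

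**Figure D1:**
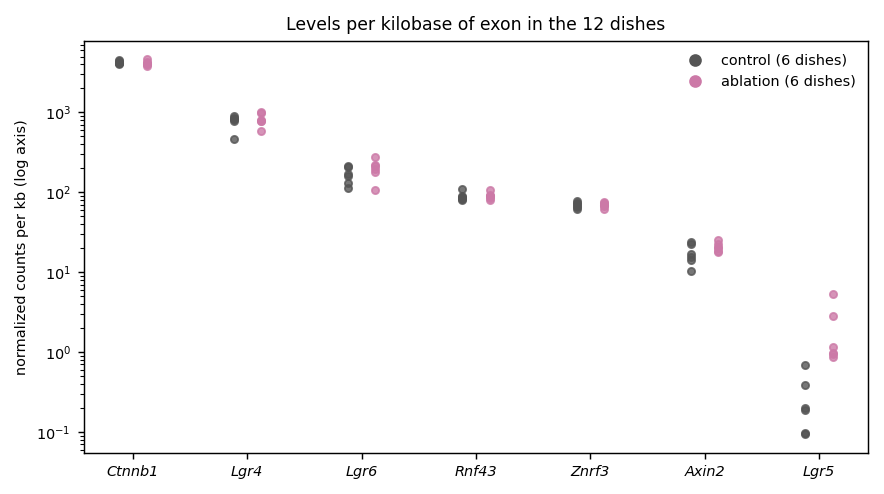
Normalized counts per kilobase of exon (log axis) of the 7 genes in the 6 control dishes (grey) and the 6 ablation dishes (pink), 1 point per dish. From Ctnnb1 (mean 4190) to Axin2 (mean 19.02) the dishes of both groups lie close together, while the Lgr5 points of both groups lie apart from each other at the bottom of the range.

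The first comparison asks whether RNA of the Lgr receptors differed between ablated and untreated organoids. Lgr5, a receptor known as a marker of stem cells in the intestine and hair follicle, was the only one of the 7 genes whose groups did not overlap. Its normalized counts after ablation were 11.7, 9.99, 54.4, 29.1, 8.89 and 9.73 in dishes 1, 3, 4, 5, 6 and 7, from 12, 10, 55, 31, 9 and 10 reads. In the control dishes of the same numbers they were 0.965, 2.05, 1.01, 1.91, 3.95 and 7.01, from 1, 2, 1, 2, 4 and 6 reads. Every ablation dish was above every control dish, by a wide margin in pairs 4 and 5 and a narrow one in pair 7. The mean was 20.6 ± 18.2 after ablation and 2.82 ± 2.32 in the control (SD, n = 6 each), a ratio of 7.33, and the reads summed to 127 and 16. The difference of 17.8 normalized counts had an exact two-sided permutation p of 0.00216, the smallest that 6 against 6 dishes can give. Taken within the 6 pairs, all of which were higher after ablation, the exact sign-flip p was 0.0312, again the smallest possible. Of the 14742 genes that had any count but stayed under the count minimum, 11 (0.0746%) had groups that did not overlap with ablation higher, and 0.59% were higher in all 6 pairs. A gene with 0 counts in an ablation dish, such as Rspo2, can meet neither condition, so these 2 shares also count genes that could not separate. Among the 13792 genes over the minimum the corresponding shares were 0.247% and 5.17%.

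The size of the Lgr5 difference depended on few dishes, and its call depended on the model. Ablation dish 4 held 43.3% of all Lgr5 reads after ablation. With that dish left out the mean fell to 13.9 ± 8.57 normalized counts (SD, n = 5), still 4.93 times the control mean. For single dishes the counting error is large: the exact 95% Poisson interval was 41.4 to 71.6 for the 55 reads of ablation dish 4, 4.12 to 17.1 for the 9 reads of ablation dish 6 and 2.20 to 13.1 for the 6 reads of control dish 7, and it covers counting error only. When all 28534 genes with any count were fitted with limma, the estimate for Lgr5 was 2.35 (log2), and its adjusted p was 0.0907 beside the library set and 0.0171 with the pair as a block, where 0.0105% and 1.25% of genes were called. Without pair 4 the limma fit with library set gave 1.87 on the log2 scale, its adjusted p was 0.629, and 0.00358% of genes were called. DESeq2 on the recovered reads gave log2 fold changes of 2.96 (adjusted p = 0.00604, library set) and 2.70 (adjusted p = 0.00675, pair), with 0.105% and 0.771% of genes called. With edgeR the adjusted p was 0.369 beside the library set, with 0.0491% of genes called, and 5.4e-12 with the pair as a block, with 2.94% called. The edgeR fit with library set gave an adjusted p of 0.000185 on the 9 libraries whose step was accepted, with 0.577% of genes called. These 9 libraries leave out ablation dish 3 and both dishes of pair 4. With only pair 4 left out, the edgeR adjusted p was 0.119, and 0.0179% of genes were called. In library set 1, which holds no control with the word ablation in its title, the difference of the mean log2(normalized count + 1) was 2.64, and in library set 2 it was 2.07. Each of these had an exact permutation p of 0.1, the smallest that 3 against 3 dishes can give.

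Lgr5 was also read by culture day, a split looked at after the values had been seen. On culture days 14 and 15 (pairs 1, 4 and 5), ablation dishes had 11.7 to 54.4 normalized counts and control dishes 0.965 to 1.91. On days 18 to 20 (pairs 3, 6 and 7), ablation dishes had 8.89 to 9.99 and control dishes 2.05 to 7.01. The nearest dishes of both ages were within counting error of each other, with 12 reads (early) and 10 reads (late) after ablation and 2 reads each in the control, so no order by age can be read from single dishes. The log2 difference within pairs was 3.62 ± 1.07 early and 1.09 ± 0.72 late (SD, n = 3 pairs each). The exact permutation p of this difference was 0.1, the smallest that 3 against 3 pairs can give, so this design cannot pass the threshold. Markers of other cells were read beside Lgr5. The summed mesenchymal markers overlapped between groups as given above, and Col1a1, the collagen of fibroblasts, had 5.85 to 16.9 normalized counts after ablation and 5.12 to 12.5 in the control. The 7 immune markers summed to 211 to 363 after ablation and 216 to 369 in the control. The 4 of them that could be tested all had log2 fold changes below 0 (median -0.17). Ptprc, the general leukocyte marker, stood at -0.52 (limma adjusted p = 0.674 with library set) and was higher after ablation in 1 of 6 pairs. Its means were low, at 10.9 after ablation and 14.7 in the control. Csf1r, the macrophage growth factor receptor, which was under the count minimum and was picked out after its values were seen, went the other way in 6 of 6 pairs. Its means were 7.30 after ablation and 2.35 in the control. Of all genes with any count under the minimum, 0.59% were higher in 6 of 6 pairs. The part of these cells in the Lgr5 difference was not tested.

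**Figure D2:**
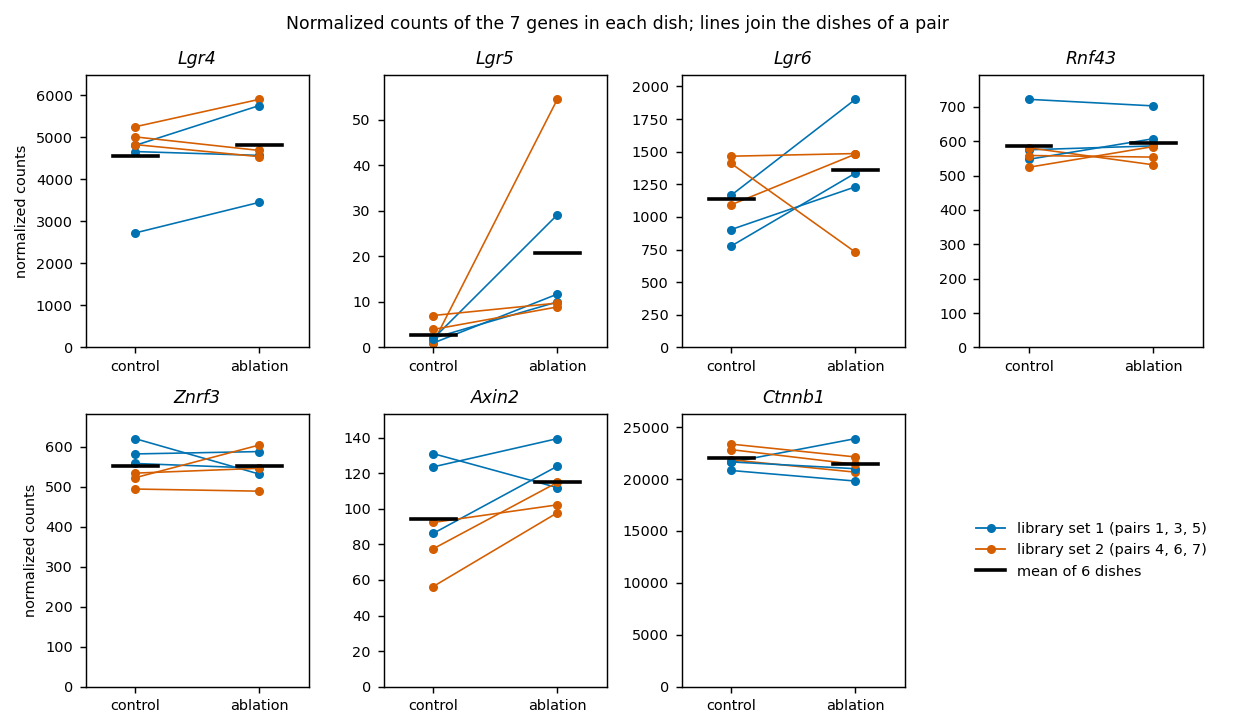
Normalized counts of the 7 genes in each dish, with control left and ablation right in each panel, lines joining the dishes of a pair, colors for the library sets and black bars for the means of 6 dishes. In the Lgr5 panel all 6 lines rise, from at most 7.01 to at least 8.89 normalized counts, with pair 4 (1.01 to 54.4) highest, whereas the groups overlap in the other 6 panels.

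Lgr6, a receptor known from stem cells of skin and from parts of the lung, had a higher mean after ablation but a spread of the same size. Its normalized counts were 1230, 1335, 1481, 1901, 731 and 1485 in ablation dishes 1, 3, 4, 5, 6 and 7 and 903, 777, 1093, 1166, 1409 and 1465 in the control dishes of the same numbers. Ablated dishes were higher in pairs 1, 3, 4 and 5, nearly level in pair 7 and lower in pair 6, and the groups overlapped. The means were 1360 ± 384 and 1136 ± 272 (SD, n = 6 each). In the limma fit with library set the log2 fold change was 0.24 ± 0.21 (SE) with an adjusted p of 0.811, and with the pair as a block the adjusted p was 0.668. The 95% interval of the fold change reached from 0.859 to 1.62. Of the 13792 genes tested, 0% were called at an adjusted p under 0.05 in the fit with library set and 1.09% in the paired fit. At an unadjusted p under 0.05 these were 1083 genes (7.85%) and 2433 genes (17.6%). With library set, edgeR on the recovered reads called 0 genes and DESeq2 called 40, and neither called any of the 6 tested genes described here.

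The response of Lgr6 was also the least even of the 6 tested genes between pairs. The SD of its log2 difference within pairs, 0.64, compared with 0.36 for Axin2 and 0.09 for Ctnnb1, and 94.7% of all tested genes had a smaller residual SD in the paired fit. In library set 1 the log2 fold change was 0.64 and in library set 2 it was -0.16, as pair 6 lies in the latter. The interaction of ablation and library set was -0.81 ± 0.38 (SE) on the log2 scale, with an unadjusted limma p of 0.0831 and an adjusted p of 0.675. Without pair 6 the paired limma fit gave 0.48 with an adjusted p of 0.0565, the lowest adjusted p that any of the 6 tested genes reached under any setting tried. Without pair 3 the log2 fold change was 0.13 and without pair 5 it was 0.15. In this comparison between library sets 1 gene (0.00725%) was called, the lactate transporter gene Slc16a3, and none of those described here.

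Lgr4, the broadly expressed member of the family, had almost the same level in both groups. The 6 ablation dishes held 3451 to 5900 normalized counts of Lgr4, with the median at 4626. The 6 control dishes held 2723 to 5248, with the median at 4815. The ranges overlapped, and 3 of 6 pairs were higher after ablation. The limma log2 fold change was 0.09 ± 0.15 (SE, adjusted p = 0.900) with library set, and the adjusted p was 0.442 in the paired fit. The 95% interval of the fold change was 0.853 to 1.33 with library set and 0.976 to 1.16 in the paired fit.

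**Figure D3:**
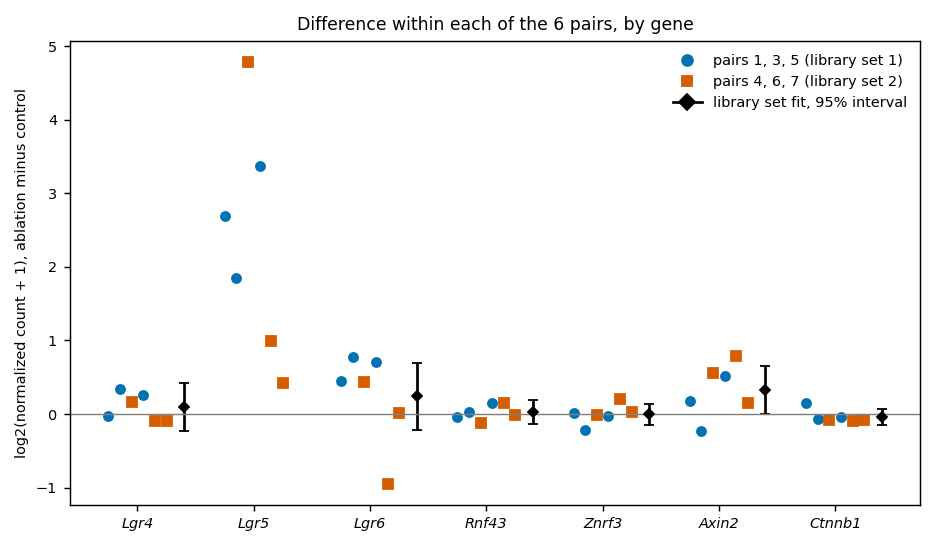
Difference of log2(normalized count + 1) between the ablation and the control dish of each pair, by gene, with circles for library set 1, squares for library set 2, and black diamonds with bars for the limma estimate with library set and its 95% interval (not drawn for Lgr5, which was under the count minimum). Lgr5 points lie between 0.42 and 4.79, all above 0, Lgr6 points reach from -0.95 to 0.78, and 5 of the 6 Axin2 points are above 0.

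The ubiquitin ligases that remove Frizzled receptors were measured at steady levels. Normalized counts of Rnf43 were 531 to 703 in ablation dishes, with the median at 585, and 524 to 722 in control dishes, with the median at 567. For Znrf3 they were 489 to 604 in ablation dishes and 494 to 620 in control dishes, with the median at 546 in both. Ranges of both groups coincided for either gene, and each was higher after ablation in 3 of 6 pairs. The limma log2 fold change with library set was 0.03 ± 0.08 (SE) for Rnf43 (adjusted p = 0.956) and 0.00 ± 0.07 (SE) for Znrf3 (adjusted p = 0.996). The 95% interval of the fold change was 0.910 to 1.14 for Rnf43 and 0.905 to 1.102 for Znrf3.

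Axin2, the scaffold that is widely used as a readout of Wnt activity, leaned higher after ablation without passing the threshold. Its normalized counts were 139, 112, 115, 124, 97.7 and 102 in ablation dishes 1, 3, 4, 5, 6 and 7. In the control dishes of the same numbers they were 124, 131, 77.5, 86.2, 56.3 and 92.3. Ablated dishes were higher in 5 of 6 pairs, most in pair 6, and lower in pair 3, and the groups overlapped. Among all tested genes 17.9% were higher in 5 or 6 of 6 pairs. Mean normalized counts were 115 ± 15.1 after ablation and 94.5 ± 28.3 in the control (SD, n = 6 each). The limma log2 fold change with library set was 0.33 ± 0.15 (SE), with an unadjusted p of 0.0463 and an adjusted p of 0.629. With the pair as a block the unadjusted limma p was 0.0276 and the adjusted p 0.222. The log2 fold change was 0.16 in library set 1 and 0.50 in library set 2, and the interaction had an adjusted p of 0.767. The exons of Axin2 share 209 bases with Gm11670 on the opposite strand, which had 0 counts in all libraries.

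Because Axin2 is regulated by TCF factors at its own locus, the stretch before its annotated start was read from RefSeq (build GRCm38.p6). Promoter windows of 300 bases, 250 before to 50 after the start, were found for 5 of the 7 genes (Lgr4, Lgr6, Rnf43, Axin2 and Ctnnb1). The 250 bases before the start of Axin2, at chr11:108920099-108920348 on the + strand, are shown in lower case throughout since no motif was found in them.
Axin2: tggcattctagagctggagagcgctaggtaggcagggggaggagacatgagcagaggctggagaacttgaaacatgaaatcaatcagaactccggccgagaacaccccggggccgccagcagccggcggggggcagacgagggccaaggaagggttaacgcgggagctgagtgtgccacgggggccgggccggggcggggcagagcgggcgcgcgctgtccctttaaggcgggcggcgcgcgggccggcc
The letters CTTTG followed by 2 letters that are each A or T, forms of the core that TCF and LEF proteins bind, were searched on both strands. They occurred in 0 of the 7 windows of these 5 genes and in 16.9% of all 32851 promoter windows. This says only that the letters are not in these windows. The Axin2 stretch was rich in G and C (69.2%, against a median of 52.4% over the same 250 bases of all windows).

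Ctnnb1, which encodes β-catenin, was the most abundant of the 7 genes and the steadiest. Its normalized counts were 19809 to 23893 in ablation dishes, with the median at 21210, and 20827 to 23367 in control dishes, with the median at 21753. The control range lay inside the ablation range, with 1 of 6 pairs higher after ablation and 5 lower, and 18.4% of all tested genes were lower in 5 or 6 pairs. The limma log2 fold change with library set was -0.04 ± 0.05 (SE, adjusted p = 0.880), and the 95% interval of the fold change was 0.904 to 1.05. Exons of Ctnnb1 share 759 bases with Ulk4 on the opposite strand, which had a mean of 62.9 normalized counts, and the libraries were stranded. As β-catenin is regulated mainly through its degradation, its RNA does not report the protein level.

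The other genes of the pathway were read from 8 lists to see how the 7 genes stood among them. Of 77 genes, 62 passed the count minimum, and 0 were called in the limma fit with library set or in the paired fit (0% and 1.09% of all tested genes). At an unadjusted p under 0.05 there were 4 of the 62 genes with library set, no larger a share than the 7.85% of all tested genes. The median log2 fold change of the 62 genes was -0.03, against 0.00 over all tested genes. Of the 62 genes, 23 were above 0 and 39 below, beside 6689 and 7103 of all 13792 tested genes. Of the 6 tested genes described here, 4 had a log2 fold change above 0 and 2 below, with a median of 0.06, 0 called and 1 (Axin2) at an unadjusted p under 0.05.

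Among receptors, 12 of 12 Frizzled and Lrp genes passed the count minimum and 9 of them had log2 fold changes below 0. The largest were those of Fzd10 (-0.36, paired limma adjusted p = 0.181), Fzd8 (-0.14) and Fzd2 (-0.11). Porcn, the enzyme that attaches the lipid of Wnt proteins, had a log2 fold change of -0.10, and Wls, their carrier to the cell surface, 0.03. The Dishevelled genes, which relay the signal from Frizzled receptors, lay at 0.04 (Dvl1), -0.04 (Dvl3) and -0.01 (Dvl2). In the list of the complex that degrades β-catenin, 5 of 12 tested genes were above 0. The kinase gene Csnk1e (0.13) was higher in 6 of 6 pairs, as were 5.17% of all tested genes, with a library set adjusted p of 0.537 in limma, while Amer1, which brings the complex to the membrane, and the kinase gene Gsk3a had log2 fold changes of -0.10 and -0.08.

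In the nucleus, 3 of 15 tested TCF, LEF and cofactor genes had log2 fold changes above 0. Tcf7, which encodes TCF1, stood at 0.28 (limma adjusted p = 0.604 with library set and 0.180 in the paired fit), Bcl9, which binds β-catenin, at 0.12 and Ctnnbip1, an inhibitor of the binding of β-catenin to TCF, at -0.14. Ctnnbip1 was lower in all 6 pairs, with a library set adjusted p of 0.618 in limma. The cofactor gene Ctbp1 and the junction gene Ctnna1 were also lower in all 6 pairs. The share of all tested genes lower in all 6 pairs is not given here. In the wider class of 5 or 6 pairs it was 18.4%. The list of other feedback and target genes was the one with most values above 0, namely 10 of 14 tested genes with a median of 0.10. Of all 13792 tested genes, 6689 were above 0. In this list 0 genes were called, and 1 (Tcf7) had an unadjusted limma p under 0.05 with library set. At its upper end were Smoc2 (0.40, adjusted p = 0.782 with library set in limma), Tnfrsf19 (0.35) and Tcf7. In the control, Smoc2 had 17.1 to 32.8 normalized counts and Tnfrsf19 9.88 to 104, so that both were measured at low levels and with a wide spread. After ablation, Smoc2 had 80.9 normalized counts in dish 1 and 16.8 to 30.6 in the other dishes. Dkk1, Sp5 and Wif1 were at 0 in all dishes. Notum, an enzyme that inactivates Wnt proteins, had 4.87 to 26.3 normalized counts after ablation and 7.72 to 16.3 in the control. Of the genes whose products bind β-catenin or act beside it at cell junctions, 4 of 5 tested were below 0, with Cdh3 at -0.12, Jup at -0.09 and Ctnna1 at -0.08. Among the marker lists, the basal cell factor Trp63 (log2 fold change 0.39) and the secretory cell enzyme Aldh1a1 (0.42) were called higher in the paired limma fit, in 6 of 6 pairs each, but not beside the library set (adjusted p = 0.187 and 0.530). Most other members of their lists did not share this direction, as 6 of 10 tested basal markers (median -0.07) and 4 of 7 tested secretory markers (median -0.16) had log2 fold changes below 0.

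**Figure D4:**
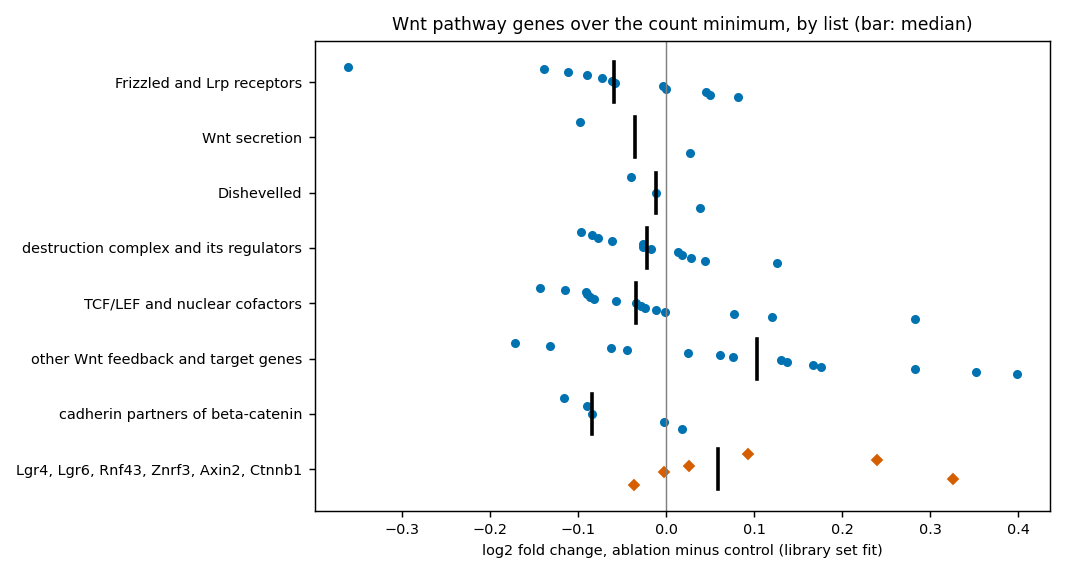
Log2 fold change of ablation against control (limma fit with library set) of the pathway genes over the count minimum, 1 point per gene in rows by list, with a black bar at each list's median and the 6 tested genes of Lgr4, Lgr6, Rnf43, Znrf3, Axin2 and Ctnnb1 as diamonds. Nearly all points lie between -0.2 and 0.2, with Fzd10 (-0.36) at the left and Smoc2 (0.40) at the right, and no point passed an adjusted p of 0.05.

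The second comparison concerns the age of the cultures, as pairs were taken on culture days 14 to 20. Lgr4 was the gene with the clearest difference. The mean of both dishes of a pair was 4613, 5574 and 5279 normalized counts for the younger pairs 1, 4 and 5 and 3087, 4846 and 4681 for the older pairs 3, 6 and 7. Pair 3, the oldest at day 20, stood lowest, and its control dish had 2723 normalized counts, but the older and younger pairs overlapped. Beside the library set, the limma log2 difference of late against early pairs was -0.45 ± 0.11 (SE), with an unadjusted p of 0.00521 and an adjusted p of 0.758. In this fit 895 of all 13792 tested genes had an unadjusted limma p under 0.05. Without pair 3 it was -0.23, without pair 4 it was -0.68 and without the library set in the fit -0.32. For the other 5 tested genes the log2 difference lay between -0.18 (Lgr6) and 0.09 (Znrf3), with adjusted limma p-values of at least 0.897. Over all 13792 genes, 1 (0.00725%) was called by culture day, Igfbp5, which encodes a binding protein of insulin-like growth factors. Between library sets 0% of genes were called, with 1501 (10.9%) at an unadjusted limma p under 0.05. Lgr4 was higher in set 2 by 0.41 on the log2 scale (adjusted p = 0.442) and Axin2 differed by -0.40 (adjusted p = 0.468). Passages were later in set 2, at 15 or 16 after P2 against 14 or 15 in set 1, so that passage and set moved together in part (passage 15 occurs in both). Culture day and set also moved together in part. Set 1 held the younger pairs 1 and 5 with the older pair 3. Set 2 held the younger pair 4 with the older pairs 6 and 7.

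**Figure D5:**
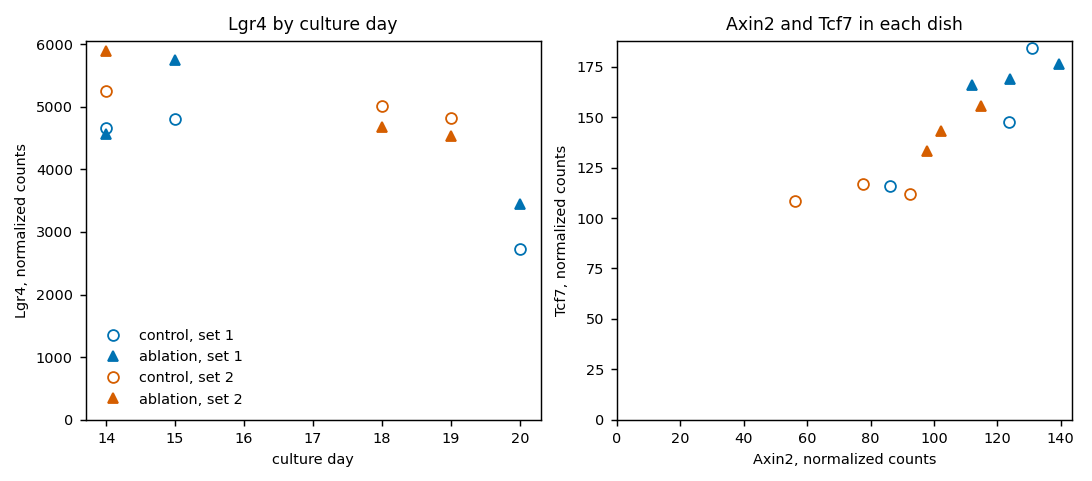
Left, normalized counts of Lgr4 in each dish against culture day. Right, normalized counts of Tcf7 against those of Axin2 in each dish. Open circles are control dishes, filled triangles ablation dishes, and colors the library sets. Lgr4 is lowest in the 2 dishes of day 20 (2723 and 3451), and Tcf7 ranks the dishes nearly as Axin2 does, from the lowest Axin2 dish (56.3) to the highest (139).

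The dishes were finally ranked by each of the 7 genes, and the genes over the count minimum that ranked them most alike were read out, by the mean absolute difference of ranks over the 12 libraries. Over all genes and members the median of this measure was 4. For Axin2 the nearest gene was Tcf7 (0.833), itself on the list of Wnt target genes. Normalized counts of Tcf7 were 133 to 176 in ablation dishes, with the median at 161, and 109 to 184 in control dishes, with the median at 116, and as for Axin2 the control of pair 3 was the one above its ablation dish. The second gene was Tmem120a (1.17). For Lgr5 the nearest were Slc35f6, Ttc5, D6Wsu163e and Gm37660 (1.00 each) and Vav3 (1.17). For Lgr4 they were Spag9 and Pdcl (1.17 each), for Lgr6 Atp6v0b (1.00) and Gm43254 (1.17), and for Rnf43 Etv3 (1.00) and Heatr5b (1.17). Znrf3 was nearest to Map2k2 (0.667) and Rexo1 (0.833), and Ctnnb1 to Tprgl (0.667) and Rufy1 (0.833). With 13792 genes and 12 libraries that share depth and library set, near matches are found for any gene, and these names are a description only. Among the 7 genes themselves, the closest were Rnf43 and Axin2 (2.33) and Znrf3 and Axin2 (2.50). Each receptor had another receptor as its nearest of the 7 genes, with Lgr5 and Lgr6 at 2.67 and Lgr4 and Lgr6 at 3.00. Lgr5 was nevertheless nearer to Axin2 (2.83) than to Lgr4 (3.67), and Lgr4 was at 3.50 from Ctnnb1. These distances too are a description only.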

How the data were processed

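Poly(A) RNA of 12 dishes was made into stranded libraries. The authors counted reads per gene (GENCODE annotation, GRCm38), scaled every library with a DESeq2 size factor and deposited the resulting normalized counts, which are the signal values used here. Their own score columns, p-values and log2 fold changes, also deposited, were not used. In every library 100% of values were whole multiples of 1 step (tolerance 0.05), which gave back read counts. For 9 libraries the step was accepted by rule, and for ablation 3, ablation 4 and control 4 it was too near 1 to be judged. Log2(normalized count + 1) was fitted over all tested genes with limma 3.58.1 (R 4.3.3; trended, robust eBayes) with condition and library set, or with condition and pair (replicate block), and adjusted by the Benjamini-Hochberg method at 0.05. The library set stands for the batch of the authors' model, which the methods do not define. edgeR 4.0.16 and DESeq2 1.42.0 on recovered reads were alternatives. Lgr5 was compared by exact permutation in Python 3.11.15. The fits were tested on simulated data.

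Same-numbered dishes deviated together from their group means (r = 0.62, 0.49, 0.21, 0.32, 0.38 and 0.33 across genes for pairs 1, 3, 4, 5, 6 and 7). The labels give them the same passage and day of culture, so a fit with the pair as a block is given as an alternative. The main limma fit of ablation against control, with library set, does not use the pairing. Its SE and that of the paired fit were 0.149 and 0.059 for Lgr4 and 0.212 and 0.246 for Lgr6. Where nothing says that dishes came from separate animals, p-values measure the spread between dishes. The genes, lists and tests were chosen with earlier results of these data known. The text names the 7 genes, list genes past the threshold, the 3 largest log2 fold changes of each pathway list and the genes nearest in rank pattern (5 for Lgr5, 2 for others). Tle5 was matched through its older symbol Aes.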

Additional observations from a re-analysis of the deposited data

Results flagged for a closer look

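Among 21 groups of 6 values (each gene in the ablation dishes, in the control dishes and as log2 difference within pairs), 3 held a value standing apart from the others, where chance gives about 1 in 20. Control 3 had 2723 normalized counts of Lgr4, while the other control dishes had 4658 to 5248. This dish was cultured for 20 days, the longest, and its ablation partner was also the lowest of its group. Control 1 had 722 normalized counts of Rnf43 against 524 to 581 in the other controls, and ablation dish 1 was the highest of its group as well. Pair 1 was the only one in which Ctnnb1 was higher after ablation, with a log2 difference of 0.14 against -0.09 to -0.04 in the other pairs.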

How the results depend on the processing

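Over 192 refits of the 6 tested genes (32 per gene), 0 brought a gene past the threshold, 173 kept direction and 19 turned it, and the replicate block changed no call of these genes. The largest turned value was that of Lgr6 in library set 2 alone (-0.16). In set 2 alone Lgr4 was at -0.0052 and Znrf3 at 0.075, and in set 1 alone Ctnnb1 at 0.0093. Znrf3 moved from -0.0021 in the fit with library set to 0.0056 with each library scaled to the same total and to 0.00089 after quantile normalization (both also with the block), to 0.0017 with edgeR, 0.0015 with DESeq2 and 0.026 with edgeR on 9 libraries. Leaving out 1 pair in turn gave -0.00022 to 0.057 for Rnf43 and -0.044 to 0.042 for Znrf3. By culture day it gave -0.14 to 0.0035 for Rnf43, -0.15 to 0.056 for Axin2 and -0.12 to 0.078 for Ctnnb1, and in control dishes alone Axin2 was at 0.12 and Ctnnb1 at 0.012. The Lgr5 difference stayed between 10.7 (without pair 4) and 20.8 normalized counts (without pair 7). Its exact permutation p was 0.00794 each time, the smallest that 5 against 5 dishes can give. As the groups of all dishes did not overlap, leaving out a pair could give no other p, and this repeat adds no support. The exact sign-flip p over the 5 remaining pairs was 0.0625 each time, also the smallest possible. The fits of Lgr5 with pair 4 left out, its edgeR fit on 9 libraries and the count models with the pair as a block were added after the data were seen.

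Counts of genes called over the whole table depended on the model. Against 0 with library set, 150 were called with the replicate block (8 without pair 4 to 176 without pair 1), 3 with no count minimum, 3 with the same total per library, 40 with DESeq2 and 356 with the block and no minimum. Fits added after the data were seen called 164 (edgeR with block), 318 (DESeq2 with block), 168 (quantile normalization with block) and 177 (same total with block). With the block and plain eBayes 0 were called, the edgeR fit with library set also called 0, and the cause was not tested. The interaction of ablation and library set had 1 call with the pair in the fit and 0 without it. Library set 2 against set 1 had 0 calls with and without culture day in the fit. Culture day had 0 without library set and 0 in control dishes alone, and 0 to 3 with a pair left out.

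Lgr5 values rest on 1 to 55 reads per dish. The RNA of cells beside the ablated ones was pooled with that of all other cells of 45 organoids, so each value is an average over all these cells.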

Other observations

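Lgr5 was 1 of 11 genes that had some counts, stayed under the count minimum and did not overlap between groups with ablation higher, and it had the largest difference of these (17.8 normalized counts). The others were looked at after their values had been seen. Golga7b, which encodes a partner of palmitoyltransferases, came next, with 8.77, 4.00, 40.6, 44.1, 6.91 and 2.92 normalized counts in ablation dishes 1, 3, 4, 5, 6 and 7 and at most 2.87 in the control dishes. Its highest values were in ablation dishes 4 and 5, as were those of Lgr5. Foxa2, a transcription factor of airway epithelium, had 6.57 to 14.0 normalized counts after ablation and 1.17 to 5.12 in the control. The remaining 8 genes differed by 4.47 normalized counts or less.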
